A study of Rattus norvegicus with 2 samples.

Results

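Spliced long non-coding RNAs (lncRNAs) whose gene spans less than 10 kb were compared between 2 libraries of rat heart muscle, 1 from the treated and 1 from the control group. They were chosen from the coordinates and lengths in the lncRNA tables, with no measured value. A row was taken when its end minus its start exceeded its listed length by more than 5 bases, so that part of the span is not in the transcript, and when end minus start was below 10000 bases. Of 18361 lncRNA rows, 6528 met the rule. The tissue was myocardium of spontaneously hypertensive rats (SHR), inbred rats in which blood pressure rises with age. Both groups carried this background, and no rats without hypertension were included in the samples used here. One group had received KXH, the high dose (9.6 g/kg, given into the stomach) of the Jiangya Kangxian formula, and the other had received distilled water, each for 12 weeks. The labels give neither age nor sex, and do not say whether a library is 1 animal or a pool.

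LncRNAs are transcripts made by RNA polymerase that do not serve as templates for protein. Many are capped, spliced and given a poly(A) tail like messenger RNAs, and many are made at low levels and in few tissues. Some act in the nucleus on splicing or chromatin, some in the cytoplasm, and for most no function is known. The names used here begin with NONRATT, the prefix of rat transcripts in the NONCODE catalogue, and the files pair none of them with a gene symbol, so they are described by name and position. Coordinates are those of the tables. The tables name no assembly, and the submitters' processing notes name rn6.

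The lncRNA tables held 2.93 M (mega) reads with KXH and 3.18 M with water, and those of protein-coding genes 14.06 M and 15.10 M. All 10 cardiomyocyte markers examined were listed in both protein-coding tables, with Mb, the myoglobin gene, at 18238 and 17406 RPKM (reads scaled to transcript length and to the total of the table) in the KXH and water libraries. Since the lncRNA totals are much smaller, RPKM values of lncRNAs and of protein-coding genes are on different scales and cannot be compared directly. The ventricular light chain Myl2 stood at 1167 and 998.6 RPKM, the atrial light chain Myl7 at 1.60 and 2.41, and the brain gene Snap25 was not listed. Some markers of other cells or chambers also differed between the libraries. The natriuretic peptide gene Nppa, in the list of 4 atrial markers, stood at 854 RPKM with KXH and 547 with water and made up nearly all of that list's sum (874 and 560). In the same list Myl4 (6.62 and 3.92) and Sln (11.5 and 7.11) were also higher with KXH, and only Myl7 was lower. The summed level of 4 erythroid markers was 2265 RPKM with KXH and 3330 with water, nearly all of it from Hbb (2234 and 3283). Alas2 and Slc4a1 were also lower with KXH, while Ahsp was nearly equal (3.07 and 3.09). The sum of 3 smooth muscle markers was 56.4 and 78.3, that of 4 endothelial markers 262 and 300, and that of 4 fibroblast markers 587 and 520. Dcn made up most of the fibroblast sum (482 and 422). Col1a1 (57.0 and 53.2) and Tcf21 (13.3 and 9.47) were also higher with KXH, and Pdgfra was slightly lower (34.5 and 35.7). The part of such differences in the lncRNA ratios was not tested. Each group has 1 library, so no test of the treatment could be made, and "higher" and "lower" describe these 2 libraries.

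The spliced lncRNAs under 10 kb made up 35.6% of lncRNA rows and 36.5% of lncRNA reads with KXH and 36.1% with water. Their listed lengths ran from 202 to 6703 bases with a median of 599, and their spans from 299 to 9993 bases with a median of 2423. In the median transcript 72.6% of the span was not in the listed length. At the span limit, NONRATT021643.2 (chr4:125724878-125734871) had 32 reads with KXH and 35 with water, and NONRATT031689.1 (chr10:35044234-35054225) had 50 and 34. Just outside it, NONRATT028975.2 had 354 and 382 reads and NONRATT013383.2 had 9 and 14. At the length limit, NONRATT000002.2 and NONRATT012063.2 had spans only 6 bases above their length, with 4 and 11 reads in the first and 94 and 99 in the second. Just outside it, at 5 bases, were NONRATT014146.2 with 2 and 1 reads and NONRATT020146.2 with 409 and 533.

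Levels were low for most of these transcripts and very high for a few. The median was 10.1 RPKM with KXH and 10.6 with water, and the highest values were 38565 and 34699 RPKM. A mean of at least 1 RPKM was reached by 5530 of the 6528 (84.7%), at least 100 by 646 (9.90%), at least 1000 by 49 (0.751%) and at least 10000 by 9. For all lncRNA rows these shares were 86.8% at 1, 8.67% at 100 and 0.566% at 1000 RPKM. The 10 transcripts with the most reads held 33.6% of the reads of the spliced lncRNAs under 10 kb with KXH and 33.3% with water, and the first 100 held 57.0% and 56.5%.

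The 2 most abundant by mean RPKM were NONRATT008258.2 and NONRATT010872.2. Whether these or the other abundant transcripts overlap protein-coding genes, whose reads could then be listed under them, was not tested. NONRATT008258.2 (chr13:52679077-52680986, 497 bases of listed length) was at 38565 RPKM with KXH and 32793 with water, a ratio of 1.18 (95% interval 1.16 to 1.19). NONRATT010872.2 (chr15:33611147-33612834, 755 bases) had 35597 and 34417 RPKM, with a ratio of 1.03 (1.02 to 1.04). Both were higher in the KXH library by more than counting error, the first by a larger factor. The intervals were derived by the exact Clopper-Pearson method from the split of reads between the libraries. They hold counting error only, without any difference between animals or in the choice of scaling.

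The next 3 in abundance lie close together on chromosome 1, and all 3 were lower in the KXH library. NONRATT033930.1 (chr1:221151827-221153278) was at 30129 RPKM with KXH and 34699 with water, a ratio of 0.868 (0.859 to 0.877). NONRATT003469.2 (chr1:221156842-221157323) had 20352 and 21723 RPKM, with a ratio of 0.937 (0.920 to 0.955). NONRATT003470.2, which starts at the same base and ends at 221157577, had 15145 and 16864 RPKM, with a ratio of 0.898 (0.879 to 0.917). The single-exon lncRNA NONRATT033931.1 lies between them (chr1:221154561-221156910), and overlaps the last 2 by 69 bases. It held 5.98% of the KXH lncRNA reads and 6.94% of the water reads, a ratio of 0.862 (0.856 to 0.867), so the 4 neighbours lay on the same side of 1. The single-exon lncRNA NONRATT003466.2, which overlaps NONRATT033930.1 by 435 bases, had a ratio of 0.913 (0.902 to 0.923).

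Of the other 5 among the 10 most abundant, 3 were higher and 2 lower in the KXH library. NONRATT018456.2 (chr3:105507397-105509767) was at 15944 RPKM with KXH and 12611 with water, a ratio of 1.26 (1.24 to 1.29), which was the highest of the 10. NONRATT010871.2 (chr15:33605654-33611354) was at 14263 and 12248 RPKM (1.16, 1.15 to 1.18). NONRATT010420.2 (chr15:33642209-33646775) was at 11827 and 9520 RPKM (1.24, 1.21 to 1.27). Both of these lie within 50 kb of NONRATT010872.2, the second most abundant. NONRATT007456.2 (chr12:36638455-36642735) was at 9473 RPKM with KXH and 11180 with water (0.847, 0.832 to 0.863), the lowest ratio of the 10. NONRATT005931.2 (chr10:83896120-83898394) was at 7217 and 7465 RPKM (0.967, 0.938 to 0.996), a ratio that passes to the other side of 1, at 1.003, with trimmed-mean scaling.

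**Figure D1:**
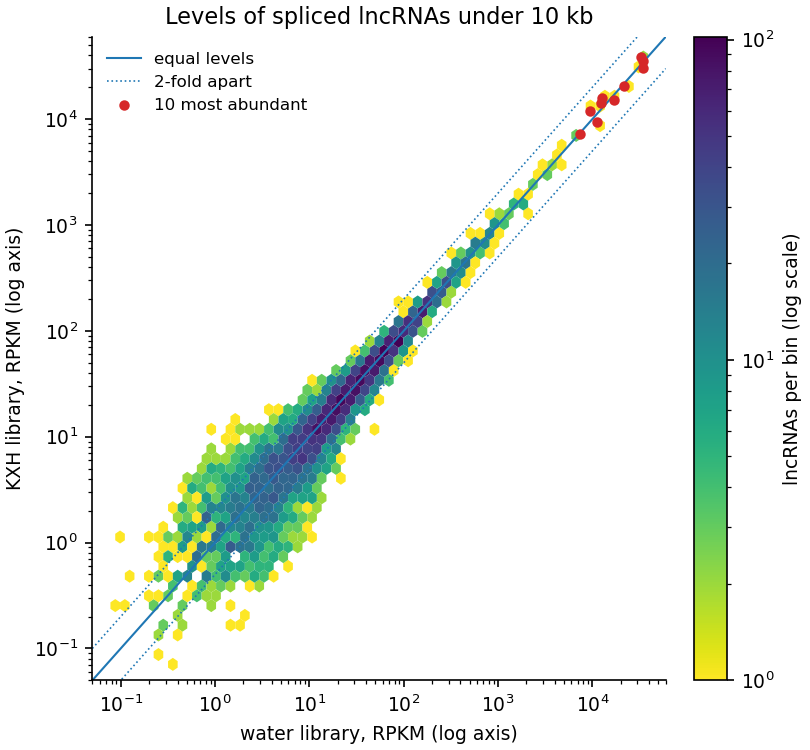
Level of each spliced lncRNA under 10 kb in the water library (x axis, RPKM, log axis) and the KXH library (y axis, RPKM, log axis), for those with reads in both; color gives the number of lncRNAs per bin, and red points are the 10 most abundant. The cloud follows the line of equal levels, is wide below 10 RPKM and narrow above 100, and the 10 red points all lie inside the dotted lines that mark 2-fold.

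The level hardly followed span, listed length or the share of the span not in the transcript. Its median was nevertheless lower where that share was larger. From spans under 500 bases to spans of 5000 to 10000 bases, the median of the mean RPKM went from 11.1 to 10.2, and in the 3 classes between them it was 9.93, 10.1 and 10.8. Across the 6528 transcripts the Spearman coefficient of span with mean RPKM was -0.0024 and that of listed length with mean RPKM 0.060. These values are across transcripts that share libraries and, in part, loci. Where under 25% of the span was not in the transcript the median was 13.8 RPKM, and where at least 90% was not it was 9.0 RPKM. In the classes between them it was 11.2, 9.84 and 9.80 RPKM, and the Spearman coefficient of this share with mean RPKM was -0.044. The median listed length was 762 bases in the first of these classes and 414 in the last, and its part in the levels was not tested. The median was 10.04 RPKM for the 1854 spliced lncRNAs spanning 10 to 50 kb and 13.2 for the 490 of 50 kb or more. It was 7.39 RPKM for the 7174 single-exon lncRNAs under 1 kb and 22.6 for the 2315 of 1 kb or longer. Thus the spliced lncRNAs under 10 kb lay between both kinds of single-exon lncRNA, with a median close to the 9.95 RPKM of all rows. No test of these differences was made.

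KXH was set against water to see which transcripts differed in hearts of rats given the formula. As a group, the spliced lncRNAs under 10 kb stood at nearly the same level in both libraries. Their summed share of lncRNA reads had a ratio of 1.01 (1.009 to 1.014), and without the 10 with the most reads the ratio was 1.006 (1.003 to 1.009). Ratios of single transcripts were also computed as log2 values after adding 0.1 RPKM to both levels, which pulls ratios of low levels toward 0. In the 5978 transcripts whose mean reached 0.5 RPKM, the median log2 ratio was -0.018, against -0.044 over the 17071 lncRNA rows that passed the same filter, and the other 550 were left out as too low. Over the 2044 transcripts with at least 100 reads in both libraries together the median was -0.0062, against -0.021 over 5870 lncRNA rows. Scaling by the trimmed mean of log ratios adds 0.053 to each of these log2 ratios and turns the sign of all 4 medians. Median-of-ratios scaling adds 0.035 and does the same to all but the -0.044 of all rows.

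Across the 2044 transcripts with at least 100 reads, log2 levels of the libraries had a Pearson coefficient of 0.985, a description over transcripts that share libraries. Of these transcripts 995 were higher and 1049 lower with KXH. Transcripts at least 2-fold apart were rare there. On the log2 scale with 0.1 added, 1 was at least 2-fold higher in the KXH library (0.0489%, against 0.153% of all lncRNA rows) and 5 were at least 2-fold lower (0.245%, against 0.256%). With the filter on level in place of reads, 536 of 5978 were at least 2-fold higher (8.97%, against 8.18% of all lncRNA rows) and 648 at least 2-fold lower (10.8%, against 10.9%). Of these, 535 and 643 had under 100 reads in sum, and the median was 6 reads in sum for the higher and 7 for the lower. In 186 of the 536 and 222 of the 648 the library with the lower level had 0 reads.

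**Figure D2:**
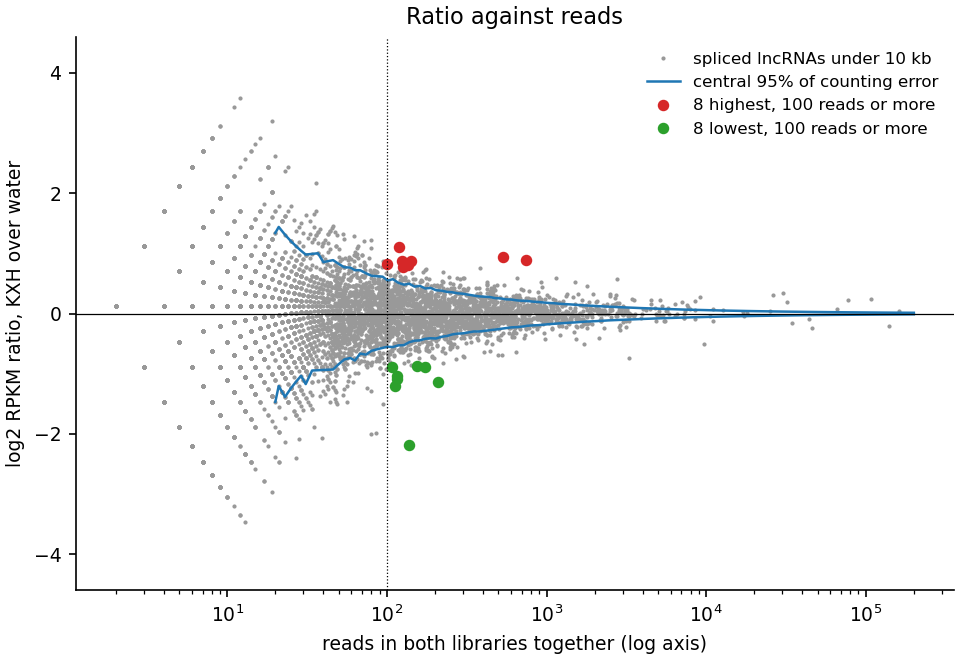
Log2 RPKM ratio of KXH over water (y axis) against the reads of both libraries together (x axis, log axis) for spliced lncRNAs under 10 kb with reads in both; blue lines bound the central 95% of counting error around an equal share, the dotted line marks 100 reads, and red and green points are the 8 highest and 8 lowest from 100 reads upward. The spread narrows as reads increase, and beyond 100 reads few points pass 1 or -1, with NONRATT033384.1, at a ratio of 0.219, the lowest.

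The counting interval gives a finer count. It lay above 1 for 333 of the 6528 transcripts (5.1%, against 4.63% of all lncRNA rows) and below 1 for 370 (5.67%, against 6.45%). With at least 100 reads it lay above 1 for 195 of 2044 (9.54%, against 8.59%) and below 1 for 202 (9.88%, against 11.5%). With at least 1000 reads, a limit added after the data were seen, it lay above 1 for 65 of 294 (22.1%, against 19.9%) and below 1 for 47 (16%, against 18.9%). The shares of the spliced lncRNAs under 10 kb thus stayed near those of all lncRNAs, and the balance of higher to lower moved with the scaling. With trimmed-mean scaling the 333 and 370 become 449 above (6.88%, against 6.60% of all lncRNA rows under the same scaling) and 273 below (4.18%, against 4.80%). With median-of-ratios scaling they become 409 (6.27%, against 5.89%) and 303 (4.64%, against 5.24%). At 100 reads or more trimmed-mean scaling gives 287 above (14.0%, against 13.2%) and 130 below (6.36%, against 7.53%), and median-of-ratios scaling 256 (12.5%, against 11.6%) and 151 (7.39%, against 8.52%). At 1000 reads or more the first gives 101 (34.4%, against 31.6%) and 24 (8.16%, against 10.2%), and the second 91 (31.0%, against 27.5%) and 31 (10.5%, against 12.7%). All lncRNA rows thus moved with the scaling in the same way, and the difference of the spliced lncRNAs under 10 kb from them was not tested.

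Depth set what could be seen. Of the 6528 transcripts 1833 (28.1%) had 1 to 9 reads in both libraries together, 2651 (40.6%) had 10 to 99, 1750 (26.8%) had 100 to under 1000 and 294 (4.504%) had 1000 or more. Over transcripts with reads in both libraries, the upper end of the interval was a median of 331 times its lower end in the first class. It was 4.45 times in the second, 1.72 times in the third and 1.199 times in the last. In the first class this covers 936 of the 1833, since the others had 0 reads in 1 library. In the median transcript of 10 to 99 reads, a 2-fold difference was thus near the limit of what counting error lets show. Coverage followed the same order, with 42.5% of the listed length covered by reads in the water library at 1 to 9 reads, 81.6% at 10 to 99, 95.2% at 100 to under 1000 and 98.3% at 1000 or more (medians).

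The ratios spread more widely than counting error in all but the first class. The robust SD (the median absolute deviation scaled to an SD) of the log2 RPKM ratio was 0.647 at 10 to 99 reads, where the median counting SD was 0.503, 0.266 against 0.193 at 100 to under 1000, and 0.125 against 0.066 at 1000 or more. At 1 to 9 reads it was 1.5 against 1.5, over the 936 transcripts with reads in both libraries. All lncRNA rows gave 0.636, 0.256 and 0.137 in the upper 3 classes. Differences between animals, between tissue pieces and between library preparations cannot be told apart from the treatment here.

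**Figure D3:**
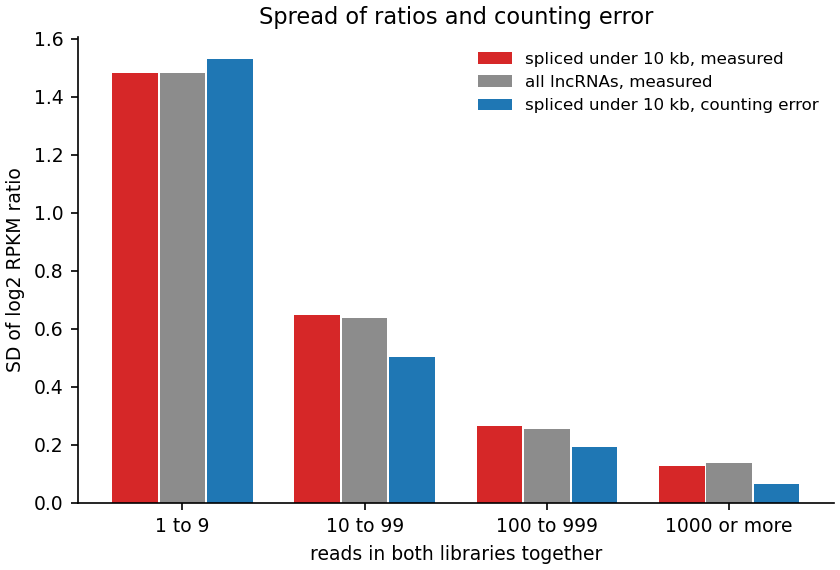
Spread of the log2 RPKM ratio of KXH over water (y axis, SD) by reads of both libraries together (x axis); red and gray bars are the robust SD among spliced lncRNAs under 10 kb and among all lncRNAs, blue bars the median SD that counting error gives. From 10 reads upward the red bars exceed the blue ones, by 0.125 against 0.066 at 1000 reads or more.

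Among transcripts with at least 100 reads, the lowest ratio belonged to NONRATT033384.1 (chr6:44006624-44009412, 1682 bases). It had 23 reads (4.67 RPKM) with KXH and 114 reads (21.3 RPKM) with water, which is 4.57-fold lower (2.90 to 7.50). Reads covered 34.6% of its length with KXH and 50% with water, where the medians of its read class were 94.4% and 95.2%. NONRATT016544.2 (chr2:187296984-187301977) had 32 and 80 reads, 16.1 against 37.1 RPKM, 2.31-fold lower (1.51 to 3.59). NONRATT023655.2 (chr5:148527831-148529270) had 62 and 148 reads, 24.6 against 54.2 RPKM, 2.20-fold lower (1.63 to 3.01). For the last, 41.7% of the length was covered with KXH and 95.1% with water. NONRATT001824.2 (chr1:266483364-266484337) and NONRATT021042.2 (chr4:180897774-180899248) were 2.13-fold (1.42 to 3.27) and 2.05-fold (1.37 to 3.13) lower. NONRATT020775.2, NONRATT020366.2 and NONRATT015458.2 completed the 8 lowest, each between 1.83-fold and 1.84-fold lower with an interval below 1.

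At the other end stood NONRATT010107.2 (chr14:85314332-85315478), with 79 reads (44.9 RPKM) with KXH and 40 reads (20.9 RPKM) with water, 2.14-fold higher (1.45 to 3.22). The following 2 rested on more reads. NONRATT022787.2 (chr5:157282731-157285292) had 342 and 194 reads, 193 against 101 RPKM, 1.91-fold higher (1.60 to 2.29). NONRATT011990.2 (chr16:49544990-49548208) had 468 and 273 reads, 178 against 95.9 RPKM, 1.86-fold higher (1.60 to 2.17), with over 99% of its 896 bases covered in both libraries. NONRATT001267.2, NONRATT020567.2, NONRATT027929.2, NONRATT004438.2 and NONRATT013584.2 were 1.70-fold to 1.84-fold higher, from 100 to 142 reads each, with intervals above 1. The 8 highest and 8 lowest were chosen for their ratios, which are therefore a description.

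Among the 294 transcripts with at least 1000 reads none reached 2-fold. The lowest was NONRATT007529.2 (chr12:39554258-39555168, 297 bases), with 1170 reads (1345 RPKM) with KXH and 2123 reads (2250 RPKM) with water, 1.67-fold lower (1.56 to 1.80). NONRATT003015.2, on the unplaced contig chrUn_AABR07024041v1, was at 3385 against 4806 RPKM, 1.42-fold lower (1.363 to 1.479). NONRATT015591.2 (chr2:198684808-198685323) was at 563 against 798 RPKM, 1.42-fold lower (1.28 to 1.56). NONRATT025783.2 and NONRATT006744.2 followed at 1.34-fold (1.21 to 1.49) and 1.33-fold (1.22 to 1.45) lower. All 5 were measured over at least 95% of their listed length in both libraries.

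The highest of this depth was NONRATT018457.2 (chr3:105514595-105519981, 816 bases), with 665 reads (278 RPKM) with KXH and 479 reads (185 RPKM) with water, 1.51-fold higher (1.34 to 1.70). It lies within 50 kb of NONRATT018456.2, one of the 10 most abundant, which was 1.26-fold higher. NONRATT013281.2 (chr18:24744849-24746155) was at 830 against 556 RPKM, 1.49-fold higher (1.38 to 1.61). NONRATT001690.2 (chr1:254726992-254731107) was at 1136 against 794 RPKM, 1.43-fold higher (1.29 to 1.59), and NONRATT026849.2 (chr7:71265053-71269854) at 323 against 234 RPKM, 1.38-fold higher (1.26 to 1.52). Coverage of NONRATT026849.2 differed, with 84.5% of its length covered with KXH and 98.96% with water.

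**Figure D4:**
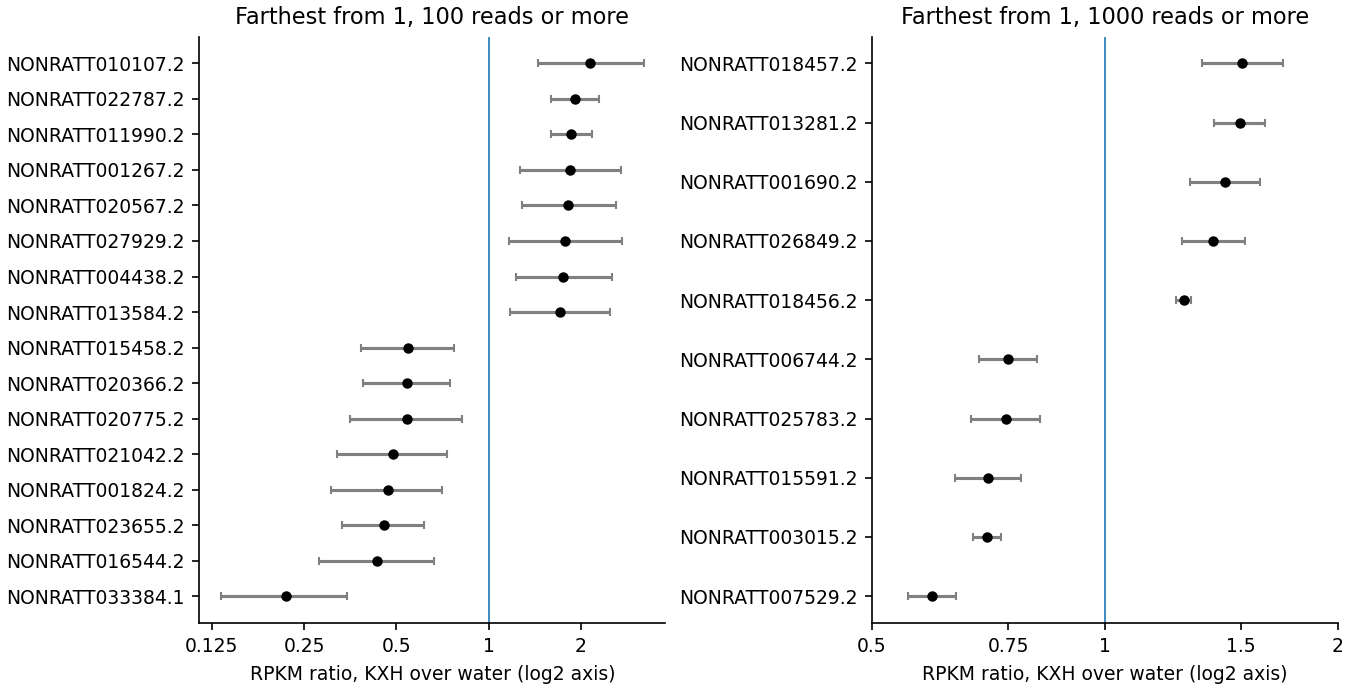
RPKM ratio of KXH over water (x axes, log2 axis) with 95% counting intervals for the spliced lncRNAs under 10 kb farthest from 1, named on the y axes: left, the 8 highest and 8 lowest with at least 100 reads; right, the 5 highest and 5 lowest with at least 1000 reads. All intervals shown lie on 1 side of the line at 1; the ratios at left reach from 0.219 to 2.14 and those at right from 0.598 to 1.51.

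Reads were listed in both tables for 5625 of the 6528, while 512 (7.84%, against 6.999% of all lncRNA rows) were absent from the KXH table and 391 (5.99%, against 4.77%) from the water table, and were taken as 0 reads. Of these, 507 of the 512 and 390 of the 391 had under 10 reads in the other library. The largest counts against an absent row were 12 reads in the water library for NONRATT014962.2 (chr2:29972533-29975057), 11 for NONRATT027151.2 and 10 for NONRATT017560.2. If 3 reads are allowed for the absent row, they were at least 3.69-fold, 3.38-fold and 3.07-fold lower. The other way round, NONRATT020563.2 (chr4:100254747-100261986) had 11 reads in the KXH library, NONRATT001757.2 had 9 and NONRATT000568.2 had 8, at least 3.98-fold, 3.25-fold and 2.89-fold higher on the same basis. These bounds do not include counting error in the other table.

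Many of the transcripts share a locus. Joining those whose spans overlap by at least 1 base gave 5778 loci, of which 5200 held 1 transcript and 578 held more, up to 7. These 578 loci held 1328 transcripts, 20.3% of the 6528, and 14 had the same start and end as another. The tables list no strand and no exons, so transcripts of opposite strands are joined as well, and a read in shared sequence cannot be assigned between them. Counting lncRNA rows of every class, 2110 (32.3%) overlapped another row and 1099 overlapped a row of another class. Among these, 507 overlapped a single-exon lncRNA under 1 kb, 199 one of 1 kb or longer, 357 a spliced lncRNA of 10 to 50 kb and 109 one of 50 kb or more. Overlap with protein-coding genes was not tested.

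Within a shared locus, most reads were listed under 1 transcript. Over the 347 loci with more than 1 transcript and at least 100 reads, the leading transcript held a median of 80.6% of the reads. The leading transcript is by definition the one with the most reads. Of the 578 shared loci, 460 held only 2 transcripts, so a high share is partly built in. Summed over the locus, the interval lay above 1 for 29 of these 347 loci and below 1 for 31. For single transcripts with at least 100 reads it lay above 1 in 195 of 2044 (9.54%) and below 1 in 202 (9.88%). For all lncRNA rows of that depth these shares were 8.59% and 11.5%. The summed ratios ran from 0.497 to 1.47. The lowest belonged to the locus of NONRATT016544.2 with NONRATT016545.2, at 38 and 83 reads, and the highest to that of NONRATT031141.2 with NONRATT030655.2 on chromosome X, at 73 and 54 reads (1.02 to 2.12).

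The 2 loci with the most transcripts held 7 each. In the locus led by NONRATT024760.2 (chr6:2879309-2886462) the reads summed to 760 with KXH and 842 with water, a ratio of 0.979 (0.886 to 1.08). Its leading transcript was at 58.9 and 53.5 RPKM (1.10, 0.944 to 1.28). Its shortest, NONRATT024766.2, was at 14.0 and 30.5 RPKM (0.460, 0.228 to 0.884), so members of 1 locus lay on both sides of 1, with 14 and 33 reads behind the lower one. In the locus led by NONRATT008371.2 (chr13:78852519-78855851) the sum was 142 and 181 reads (0.851, 0.678 to 1.07), 78.6% of it in the leading transcript. The other 6 transcripts had 1 to 34 reads in sum, and the interval of each of the 7 held 1.

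A further 4 loci held 6 transcripts each. The locus of NONRATT017194.2 (chr20:7133042-7140154) had 399 and 404 reads (1.07, 0.930 to 1.23). That of NONRATT021527.2 (chr4:113952439-113954458) had 323 and 298 reads (1.18, 1.001 to 1.38), and that of NONRATT025943.2 (chr7:83348703-83356086) had 60 and 50 reads (1.30, 0.879 to 1.93). The fourth, led by NONRATT027443.2 (chr8:13866770-13872143), had 168 and 187 reads (0.974, 0.786 to 1.21). Of these 4 only the second had a summed interval above 1, and no interval of its single transcripts excluded 1. In the third, the leading transcript NONRATT025943.2 was at 29.4 and 17.2 RPKM (1.70, 1.04 to 2.84), while the other 5 had 2 to 14 reads each.

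**Figure D5:**
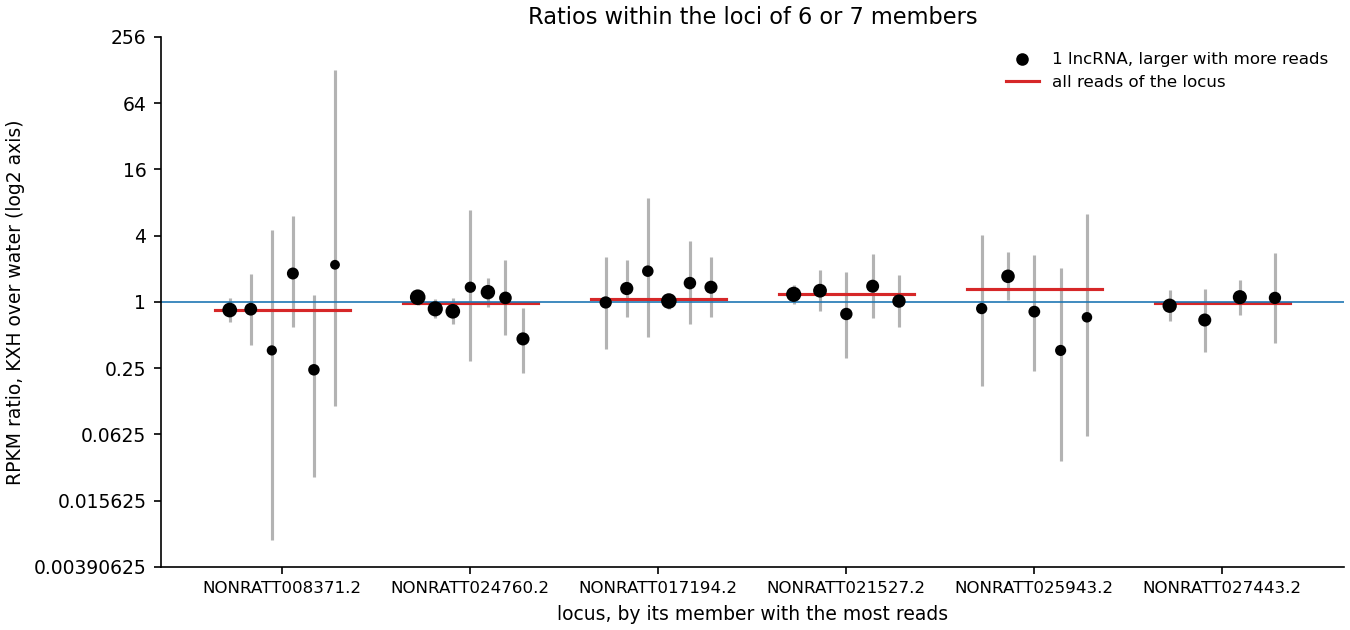
RPKM ratio of KXH over water (y axis, log2 axis) for each spliced lncRNA with reads in both libraries in the 2 loci of 7 members and the 4 loci of 6 (x axis, named by the member with the most reads); points grow with reads, gray bars are 95% counting intervals and red lines the ratio of all reads of the locus. The red lines lie between 0.851 and 1.30, while single members with few reads scatter widely around them.

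Overlapping transcripts were also compared as pairs. There were 121 overlapping pairs in which both had at least 100 reads, and 64 of these (52.9%) lay on the same side of 1. For neighbours over 100 kb apart this was 686 of 1370 (50.1%), and for neighbours up to 5 kb apart 76 of 123 (61.8%). The 2 intervals did not touch in 6 of the 121 overlapping pairs (4.96%), in 12 of the 123 neighbours up to 5 kb apart (9.76%) and in 94 of the 1370 over 100 kb apart (6.86%). The share was thus no higher in overlapping pairs than in neighbours that do not overlap.

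The 6 pairs were picked out with their values known. In 3 of them both transcripts lay on the same side of 1, NONRATT001148.2 with NONRATT001149.2, NONRATT003469.2 with NONRATT003470.2, and NONRATT010871.2 with NONRATT010872.2. In the other 3 they lay on opposite sides, NONRATT022392.2 with NONRATT022396.2, NONRATT029216.2 with NONRATT029217.2, and NONRATT022674.2 with NONRATT023655.2. In the last of these pairs, NONRATT022674.2 (chr5:148528893-148535192) was at 3104 RPKM with KXH and 3013 with water (1.03, 1.005 to 1.06), while NONRATT023655.2, which overlaps it by 378 bases, was 2.20-fold lower.

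Joining transcripts that lie within 50 kb of each other, a step added after the data were seen, showed how the most abundant ones group along the genome. A stretch of 155 kb on chromosome 15 (chr15:33605654-33760657) held 7 spliced lncRNAs under 10 kb and 14.0% of their reads with KXH and 12.9% with water, a ratio of 1.10 (1.09 to 1.10). In it the interval lay above 1 for 4 transcripts, among them NONRATT010874.2 at 4114 and 3598 RPKM (1.14, 1.12 to 1.17), and below 1 for none. The other 3 had 14 to 59 reads. A stretch of 181 kb on chromosome 1 (chr1:221000555-221181316) held 12 transcripts and 9.35% and 10.6% of the reads, a ratio of 0.888 (0.880 to 0.895). There the interval lay below 1 for the 3 abundant transcripts described above and above 1 for none, and NONRATT003463.2, the next in reads, was at 170.0 and 170.1 RPKM (1.000, 0.895 to 1.12). In both stretches the transcripts with an interval on 1 side of 1 had over 1000 reads. At that depth the interval lay above 1 for 22.1% of the spliced lncRNAs under 10 kb (19.9% of all lncRNA rows). It lay below 1 for 16% (18.9%). NONRATT010871.2 overlaps NONRATT010872.2 by 208 bases, and NONRATT003469.2 overlaps NONRATT003470.2, so their intervals are not independent. The sums are led by their most abundant transcripts and say little of the others. Overlap of these stretches with protein-coding genes was not tested.

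By chromosome, the median log2 ratio of transcripts with at least 100 reads ran from -0.032 on chromosome 18 to 0.076 on chromosome 20, over 21 chromosomes that held 6523 of the 6528. Chromosome 1 held the most transcripts, 828, and chromosomes 1 and 15 the largest shares of reads, at 17.0% and 15.3% in the KXH library and 18.3% and 14.3% in the water library. The X chromosome held 158, with a median of -0.0047 over the 55 with at least 100 reads.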

How the data were processed

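The labels name the agent (KXH or distilled water) of each of 2 libraries, with 4 deposited tables in all. Each deposited table lists a whole count of unique reads per row and an RPKM value. Per the file headers and values, the authors' RPKM is the read count scaled to 1 kb of listed length and to that table's own total (relative difference below 1e-09). Rows with at least 1 read are listed, and an absent row was taken as 0 reads. Bowtie 0.12.2 and rn6 are named, without a role, per the submitters' processing notes. Annotation, counting program, filters and use of strand: not given in the sources used here. If strand was not used, reads from both strands of a locus were added together.

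Rows were joined by name, and ratios are RPKM ratios with exact Clopper-Pearson 95% intervals. Log2 ratios had 0.1 RPKM added. Filters were a mean of 0.5 RPKM or 100 reads in sum. Because reads carried no molecular identifiers, 2 reads may stem from 1 molecule. The intervals hold counting error only, and the bounds at a floor of 3 reads leave out counting error in the other table. Transcripts named are the 10 most abundant, the 8 highest and 8 lowest ratios with at least 100 reads, the 3 with most reads absent from each table, the 5 loci of most members (ties by name, with the sixth locus, tied at 6 members, added) and those at the limits of the rule. The 5 highest and 5 lowest with at least 1000 reads, the overlapping pairs and the 50 kb stretches were added after the data were seen. Members and rules were chosen with earlier results of these data known. Alternatives were other pseudocounts, filters, scalings (trimmed mean of log ratios with edgeR 4.0.16 in R 4.3.3, median of ratios, both table totals together), thresholds and limits of the rule. The steps were tested on simulated data whose noise was counting error only, which is less than the spread of the measured ratios from 10 reads upward. Software was scipy 1.17.1, pandas 2.3.3, matplotlib 3.10.9 and numpy 2.4.6 under Python 3.11.15.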

Additional observations from a re-analysis of the deposited data

How the results depend on the processing

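The median log2 ratio of -0.018 was -0.025 with no filter on low values, -0.030 for spans below 5000 bases and -0.030 with both table totals together as the scale. It was -0.0062 with at least 100 reads, 0.036 with trimmed-mean scaling, 0.018 with median-of-ratios scaling and 0.0071 with at least 1000 reads (added after the data were seen), so its sign depended on these choices. The counts past 2-fold, 536 higher and 648 lower, became 1 and 5 with at least 100 reads, 0 and 0 with at least 1000 reads, and 894 and 1173 at a 1.5-fold threshold. The other pseudocounts, filters and scalings, 1 transcript per locus and narrower limits of the rule kept both counts within 1.5 times. The 333 intervals above 1 and 370 below became 144 and 142 at the 99% level. The summed ratio of 1.01 was 1.05 with trimmed-mean, 1.04 with median-of-ratios and 1.003 with joint scaling, and 1.006 without the 10 most read. NONRATT005931.2 went from 0.967 to 1.003 with trimmed-mean scaling. Of 132 values for 44 named transcripts under alternatives, 114 stayed inside the interval and 17 left it without a change of side. These 17 all came from the 10 most abundant, whose intervals are narrow, under trimmed-mean or median-of-ratios scaling. NONRATT003469.2, at 0.937 (0.920 to 0.955), moved to 0.972 with trimmed-mean scaling. For these transcripts the choice of scaling thus often shifts the ratio by more than the counting interval allows. Loci were 5880 where 50% of the shorter span had to overlap. Ignoring strand was not run apart, because the tables list none. No paired analysis was possible because each group has 1 library. Depth limits most of these transcripts: 4484 of 6528 had under 100 reads in sum.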
